A study of Mus musculus with 2 samples.

Results

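The nuclear receptors are a family of transcription factors that bind DNA and, in most cases, a small lipid-soluble ligand. The family was followed here in rib chondrocytes (cartilage-forming cells) grown in culture from mice aged 5 days. Total RNA of a wild-type culture and of a miR-140 knockout culture was hybridised to 1 Affymetrix mouse array each, both under a strain label naming C57BL/6 and CBA. The knockout label is miR-140 depletion, the wild type is labelled control, and no other treatment is named for either culture. Neither the number of mice behind a culture nor the part of the Mir140 locus removed is stated in the sources used here. The receptors were a list of 46 gene symbols, and 44 of them had at least 1 probe set named for that gene alone, of 18193 genes so named on the array. The other two, Nr1h2 and Nr2e3, were not analysed here.

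A classical nuclear receptor has a zinc-finger domain that reads short DNA half-sites and a ligand-binding domain that recruits coactivators or corepressors. Retinoid X receptors pair with the receptors for retinoic acid, thyroid hormone, vitamin D, fatty acids and oxysterols, whereas steroid receptors act as homodimers and the orphan receptors have no settled natural ligand or need none. In cartilage, retinoic acid, thyroid hormone, vitamin D and glucocorticoids are known regulators of chondrocyte growth and maturation. The chicken ovalbumin upstream promoter transcription factors (COUP-TFs) Nr2f1 and Nr2f2 are close orphan paralogues that mostly repress transcription and are known for roles in neural, vascular and mesenchymal development.

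The knockout is labelled as a depletion of miR-140, a microRNA, which pairs with messenger RNAs mainly through its seed. The mature 3′ strand is shown because it is a product of the gene that names the knockout, with the seed (bases 2 to 8) in capitals, from RefSeq on GRCm38.p6 (chr8:107551288-107551308, plus strand). The array has no probe set for either mature strand, and no 3′ untranslated sequence was searched.
mmu-miR-140-3p: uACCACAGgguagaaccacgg

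The start-site windows of Nr2f1 and Nr2f2 are shown because this paralogue pair carries the main contrast between the arrays. They run from 250 bases before to 50 after an annotated start, come from RefSeq on GRCm38.p6 and are written 5′ to 3′ on the minus strand, with CG dinucleotides in capitals. The upstream Nr2f1 window lies at chr13:78198824-78199123, the downstream Nr2f1 window at chr13:78196400-78196699 and the Nr2f2 window at chr7:70366697-70366996.
Nr2f1 upstream window: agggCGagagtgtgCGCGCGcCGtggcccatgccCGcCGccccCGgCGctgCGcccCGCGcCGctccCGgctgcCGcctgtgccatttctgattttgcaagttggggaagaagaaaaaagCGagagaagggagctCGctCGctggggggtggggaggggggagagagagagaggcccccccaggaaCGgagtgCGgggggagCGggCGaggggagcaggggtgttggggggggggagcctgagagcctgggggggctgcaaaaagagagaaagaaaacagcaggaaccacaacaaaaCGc
Nr2f1 downstream window: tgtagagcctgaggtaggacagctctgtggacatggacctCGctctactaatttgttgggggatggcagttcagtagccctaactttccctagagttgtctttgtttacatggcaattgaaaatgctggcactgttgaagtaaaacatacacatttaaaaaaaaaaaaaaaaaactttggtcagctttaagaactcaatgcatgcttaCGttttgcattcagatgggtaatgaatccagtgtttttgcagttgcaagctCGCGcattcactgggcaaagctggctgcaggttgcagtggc
Nr2f2 window: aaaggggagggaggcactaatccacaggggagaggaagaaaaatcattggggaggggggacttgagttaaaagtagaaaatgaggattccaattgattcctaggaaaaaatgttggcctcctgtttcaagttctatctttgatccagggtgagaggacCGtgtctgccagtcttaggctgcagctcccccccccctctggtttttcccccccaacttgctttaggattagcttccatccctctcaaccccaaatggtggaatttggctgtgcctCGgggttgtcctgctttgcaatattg

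The upstream Nr2f1 window held 23 CG dinucleotides at 68% GC, the downstream Nr2f1 window 4 at 43.0% and the Nr2f2 window 2 at 49.7%. The median over all 32851 windows in the table was 7 CG dinucleotides and 52.7% GC. The half-site AGGTCA, searched on both strands, was in none of these 3 windows. It was in 12 of the 63 windows (19.0%) of the 42 listed receptors with an entry, and in 16.3% of all windows. Of the 44 measured receptors, 40 had an entry. These letters describe the windows and were not tied to the array values.

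Signals below are log2 values from the authors' Robust Multichip Average (RMA) summary, for the brightest probe set of each gene, and a difference is the knockout minus the wild-type log2 signal. A receptor was called detected if that signal reached 7 in either array. With 1 array a genotype there is no spread between cultures, so no difference has a test or an error, and each describes this pair of arrays alone. Levels of different genes come from different probes and were not ranked. The family was detected for 20 of 44 receptors (45.5%), against 54.4% of all 18193 genes. The 20 fell in 13 of the 19 subfamilies.

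**Figure D1:**
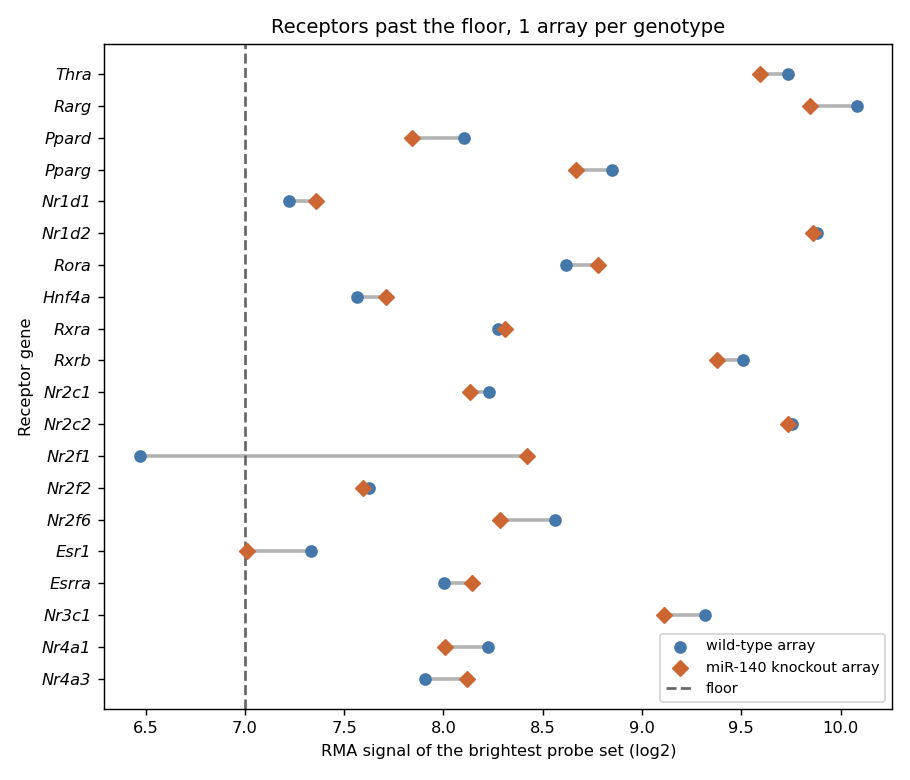
RMA signal on the log2 scale (x axis) of the brightest probe set of the 20 detected receptors (y axis), with circles for the wild-type array, diamonds for the knockout array and a dashed line at the floor of 7; there is 1 array per genotype and no error bar. Nr2f1 moves from 6.47 to 8.42, while the 2 marks of every other receptor lie at most 0.32 apart.

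The COUP-TF receptors held the largest difference among the detected receptors, and it was found in 1 of the paralogues. Nr2f1 (COUP-TFI) read 6.47 in the wild-type array, under the floor, and 8.42 in the knockout array. The difference was 1.95, a 3.85-fold higher signal, and 1.42 when the wild-type value was raised to 7. Nr2f1 thus counted as detected through the knockout array alone, and its fold rests on a wild-type value close to background. With low values raised to 7 in all 9897 detected genes, 10 (0.101%), Nr2f1 included, had a difference at least as high. As measured, 6 did. Nr2f1 was singled out when the comparison was set, so these counts are no test of it. Nr2f1 has a single probe set, so no second measurement on the arrays bears on its value.

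Nr2f2 (COUP-TFII) read 7.62 in the wild-type array and 7.60 in the knockout array. Its difference of -0.03 is a 1.02-fold lower signal, and it turned to 0.02 with median or lowess centring. The differences of the paralogues stood 1.45 apart with low values raised to 7, and 1.97 apart as measured, a gap that rests on the dim wild-type value of Nr2f1. The other 5 Nr2f2 probe sets were under the floor in both arrays and differed by -0.12 to 0.28, so none of the 6 came near the Nr2f1 value. Nr2f6, the third and more distant member, read 8.56 and 8.28 (difference -0.28), but its second probe set read 7.95 and 8.27 (0.31), and no direction is given for it.

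The gene neighbourhood of Nr2f1 was compared because its signal stood alone in the family. Of the 5 nearest measured genes on each side on chromosome 13, 4 were detected: Arrdc3 differed by 0.45, Lysmd3 by 0.11, Fam172a by 0.04 and Pou5f2 by 0.01. The adjacent transcript A830082K12Rik read 6.39 and 6.33, under the floor in both arrays. None of the 10 neighbours was 1.5-fold different. Around Nr2f2 on chromosome 7, 2 of 10 were detected, with Arrdc4 at 0.43 and Rgma at -0.39.

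**Figure D2:**
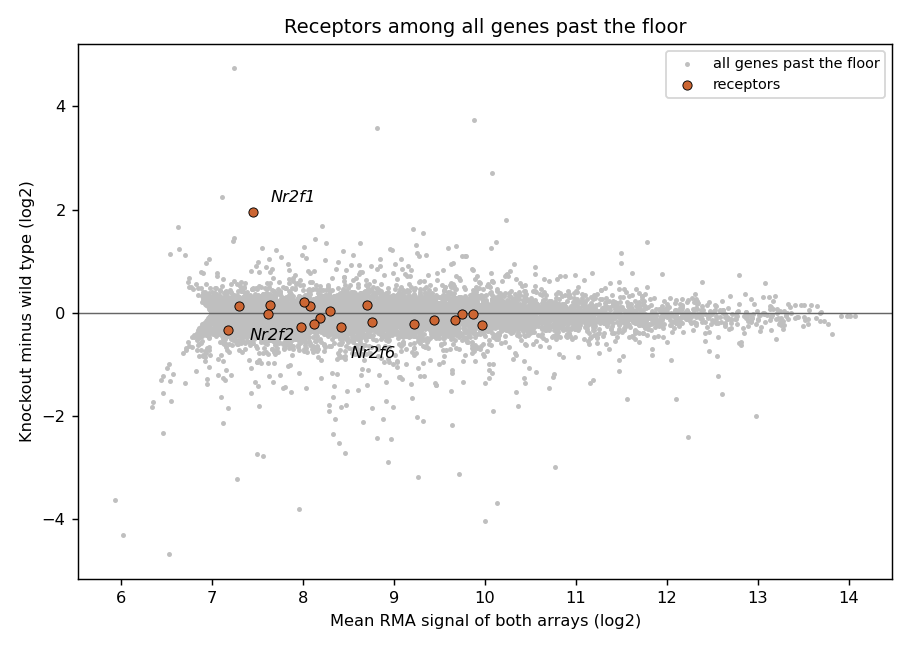
Knockout minus wild-type difference on the log2 scale (y axis) against the mean log2 signal of both arrays (x axis) for the 9897 detected genes (grey) and the 20 detected receptors (orange), 1 point per gene. Nr2f1 stands at 1.95 and the other 19 receptors lie between -0.32 and 0.21, inside the grey band around 0.

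Across the family, 7 detected receptors had higher and 13 lower signal in the knockout array, with a median difference of -0.06. Over all detected genes the median was -0.05 and 40.0% were higher, so most detected genes of the array were lower too. One receptor of 20, Nr2f1, was at least 1.5-fold different in either direction, a count near the share of 5.11% over all detected genes. In the higher direction alone the background was 1.56% at 1.5-fold and 0.475% at 2-fold. Nr2f1 was singled out when the comparison was set and was detected through the knockout array alone, so these shares are no test of it. In the lower direction no receptor reached 1.5-fold, a size passed by 3.56% of genes, or 2-fold, passed by 1.22%.

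The 19 detected receptors other than Nr2f1 lay between -0.32 and 0.21, at most 1.25-fold apart between arrays. The same interval held 77.6% of all detected genes. Their median size of difference without sign was 0.15, beside 0.14 over all genes. With median centring the split became 10 higher and 10 lower, and when all probe sets of a gene were averaged its median was 0.05, so no common direction is given for the family.

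**Figure D3:**
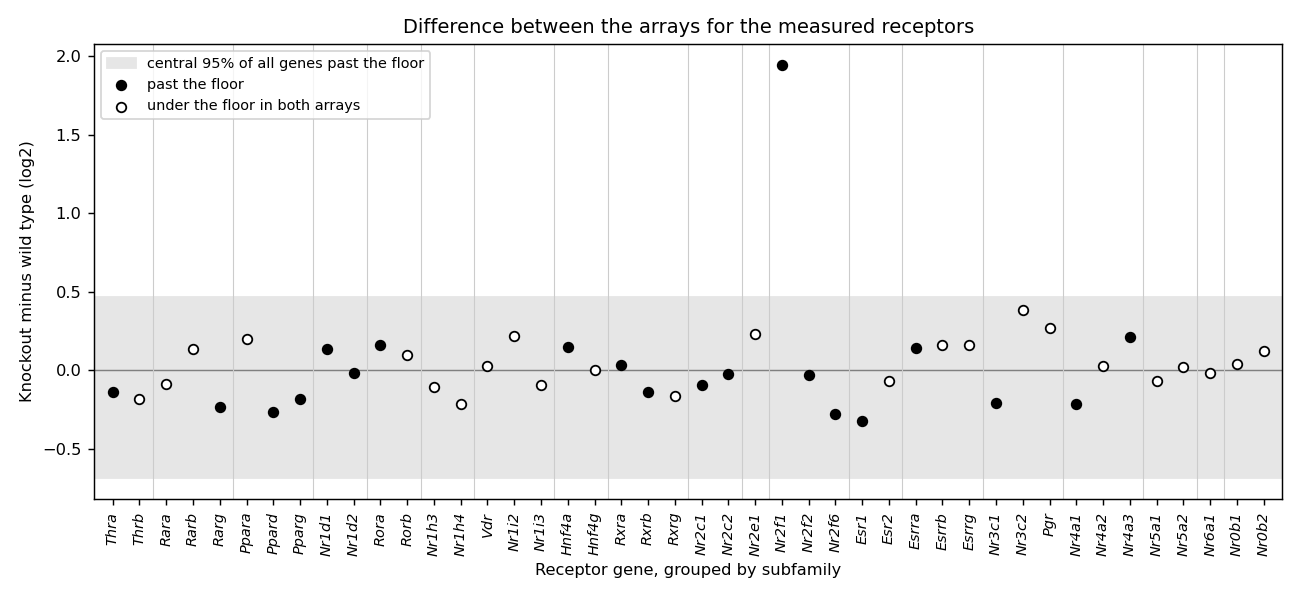
Knockout minus wild-type difference on the log2 scale (y axis) of all 44 measured receptors, grouped by subfamily along the x axis, with filled points past the floor, open points under it in both arrays and a grey band from -0.69 to 0.47 for the central 95% of all detected genes. Nr2f1 at 1.95 is the one point outside the band.

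Retinoid receptors were represented by 1 retinoic acid receptor and 2 retinoid X receptors. Rarg, the retinoic acid receptor best known in cartilage, read 10.08 in the wild-type array and 9.85 in the other (-0.23), and its second probe set 8.28 and 8.37 (0.09), so the probe sets disagree in sign. Rxra read 8.27 and 8.31 (0.04) and Rxrb 9.51 and 9.38 (-0.13). Rara, Rarb and Rxrg stayed under the floor, at 5.70 to 6.41.

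Among the genes that supply, bind and break down retinoids, 3 of the 7 detected were at least 1.5-fold lower, a size passed by 3.56% of all detected genes. In all 3 were higher and 4 lower, beside 40.0% higher over all genes, and 14 were measured. This list and those below were chosen with earlier results of these data known, so the shares set beside them are no test. Rbp4, the carrier of retinol, read 10.59 and 9.49 (-1.10). Cyp26b1, which degrades retinoic acid, read 8.66 and 7.74 (-0.91), and Dhrs3, which reduces retinal to retinol, 9.09 and 8.30 (-0.79). These 3 stood lower together, whereas Cyp26a1 stood at 0.10 and Aldh1a1, which makes retinoic acid from retinal, at -0.03. Rdh10, which makes retinal, stood at 0.04, and at -0.32 in its other detected probe set. Fabp5, a fatty acid and retinoic acid binding protein, differed by 0.28, and by 0.89 in its other detected probe set. The list median was -0.03 and changed sign with median centring (0.02).

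The same arrays differed in markers of the cells themselves. For the marker counts below, the share of all detected genes higher in the knockout was 40.0%. All 9 detected chondrocyte markers were lower in the knockout, with a median of -2.0, and the log2 of the summed signal of all 10 stood at 15.52 for the wild type and 13.64 for the knockout. Acan, the aggrecan core protein, read 12.02 and 7.99, Hapln1 10.19 and 7.74 and Snorc 10.38 and 7.49, so chondrocyte markers were detected in both arrays. Of 8 detected fibroblast and perichondrium markers 6 were higher, Col3a1 (1.38) and Lum (0.96) among them and Postn (-1.26) against them, and their summed signal was 14.73 and 15.02. No osteoblast or skeletal muscle marker of the 4 measured for each was detected. Fewer cells of a type and less RNA per cell cannot be told apart in such cultures. The part of these marker differences in the values of Nr2f1, Rbp4, Cyp26b1 and Dhrs3 was not tested. Xist read 7.01 in the wild-type array and 10.60 in the knockout array (difference 3.59). The Y-linked Eif2s3y read 8.86 and 4.18 (-4.68), and Uty (-4.30) and Kdm5d (-3.62) were lower too. The labels give no sex. With 1 array a genotype, a difference in sex between the cultures cannot be told apart from the knockout for any gene here. Of the 44 measured receptors 1, Nr0b1, lies on a sex chromosome, and it was under the floor. That position does not bear on the other receptors, and the part of sex in their values, Nr2f1 included, was not tested.

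Thra, a thyroid hormone receptor, read 9.73 and 9.60 (-0.14), with further probe sets at -0.02 and -0.31, while Thrb stayed under the floor. All 3 Thra probe sets were thus lower as measured. The one at -0.02 stood above the median of all detected genes (-0.05), so no common direction is given for them. Of the thyroid hormone handling and target genes 4 of 9 measured were detected. None was 1.5-fold different by its brightest probe set, beside 5.11% of all detected genes. Dio2, which activates thyroid hormone, differed by 0.16 (0.39 as the mean of its probe sets), and by 0.60 in another detected probe set. Thrsp differed by 0.11, Klf9 by 0.09 and Ttr by -0.12, with a list median of 0.10.

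Vdr, the vitamin D receptor, was under the floor in both arrays, at 6.34 and 6.37. The few vitamin D genes measured were mostly dim too. Of 6 measured vitamin D genes only Cyp27a1 was detected, at 7.36 and 7.15 (-0.20), beside 54.4% of all genes. Spp1 and Gc, also listed, had no probe set named for them alone, so their levels are not known here.

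Of 3 lipid-sensing receptors of the peroxisome proliferator-activated group, 2 were detected. Pparg, the regulator of adipocyte differentiation, read 8.85 and 8.67 (-0.18), and Ppard 8.11 and 7.84 (-0.26), while Ppara was under the floor at 5.38 and 5.58. Both detected receptors were slightly lower. Their target list was split, with 5 of 10 detected genes higher, beside 40.0% of all detected genes. The list median was 0.06 (-0.02 with the mean of all probe sets). In the list 1 gene was at least 1.5-fold higher by its brightest probe set, beside 1.56% of all genes. Lpl, a lipoprotein lipase, read 8.72 and 9.83 (1.11). The fatty acid oxidation gene Cpt1a differed by 0.55 and Fabp3 by 0.46. Fabp4 differed by 0.51, and by 1.06 in its other detected probe set. The adipocyte markers Adipoq and Cidec were under the floor in both arrays, at 4.58 to 5.25, Cebpa differed by -0.48, and the summed signal of the 5 measured adipocyte markers, on the log2 scale, was 11.85 for the wild type and 12.38 for the knockout; their part in Lpl and Fabp4 was not tested.

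The oxysterol receptor Nr1h3 (LXR-alpha) was just under the floor, at 6.68 and 6.58, and the bile acid receptor Nr1h4 lower at 5.23 and 5.02. Nr1h2, the other liver X receptor, had no probe set named for it alone, so its level is not known here. Genes listed here as liver X receptor targets or for oxysterol handling were mostly detected. Of 11 detected, 9 were higher in the knockout and 2 lower, beside 40.0% higher over all detected genes, with a median of 0.09. Scd2 was counted as lower at -0.03, but another of its detected probe sets stood at 1.19. At least 1.5-fold higher were 2, the target Apoe and the oxysterol enzyme Cyp7b1 (1.56% of all genes), and at least 1.5-fold lower 1 (3.56%). Apoe, a lipid carrier, read 7.41 and 8.85 (1.43). Cyp7b1, an oxysterol hydroxylase, read 6.51 and 7.97 (1.45), and 0.97 with its wild-type value raised to 7. Mylip stood at 0.43, and Srebf1, the lipogenic factor, went the other way at 10.24 and 9.58 (-0.66). The sterol exporters Abca1 (0.09) and Abcg1 (0.08), the best known targets of the receptor, hardly differed. Of 6 macrophage markers 4 were detected, with summed signals of 9.66 and 9.72 on the log2 scale. Cd14 read 7.87 and 8.23 (0.36), Adgre1 differed by -0.19, and Cd68 (7.24 in both arrays) and Csf1r (7.30 in both) were near the floor. Their part in the Apoe value was not tested.

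**Figure D4:**
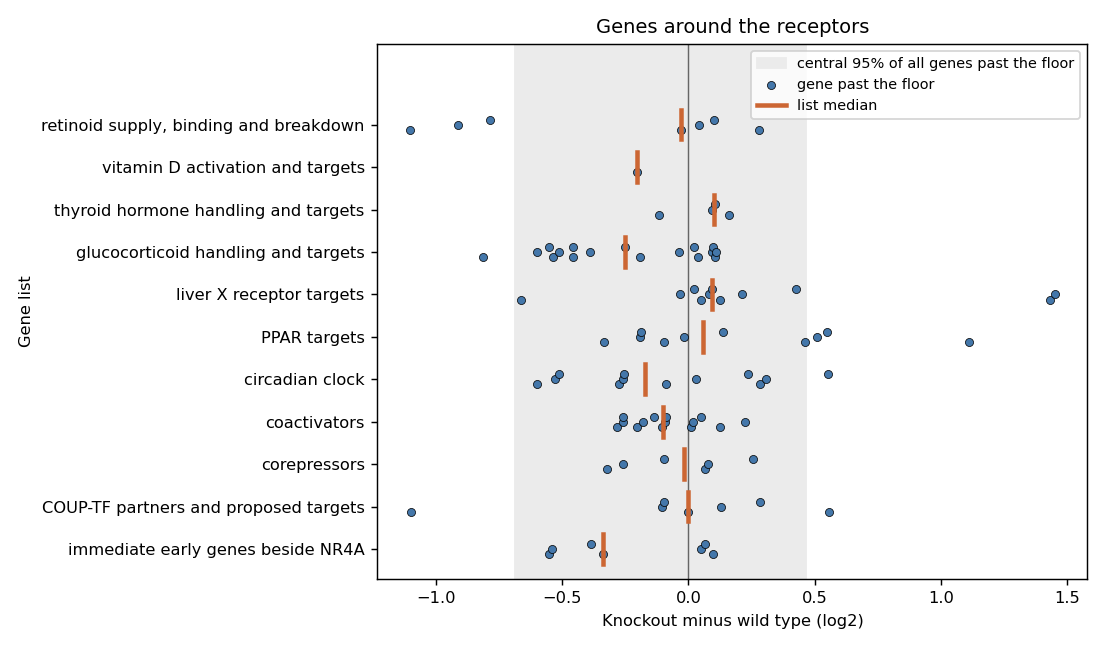
Knockout minus wild-type difference on the log2 scale (x axis) of each detected gene in 11 lists of receptor ligand handling, targets and partners (y axis), with an orange bar at the list median and a grey band from -0.69 to 0.47 for the central 95% of all detected genes. Rbp4 (-1.10), Cyp26b1 (-0.91), Apoe (1.43), Cyp7b1 (1.45), Lpl (1.11) and Notch1 (-1.10) lie farthest outside the band. Nearer its edges, but also outside it, lie Hsd11b1 (-0.81), Dhrs3 (-0.79), Angpt1 (0.56), Dbp (0.55), Cpt1a (0.55) and Fabp4 (0.51).

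The main receptors of the circadian clock were detected. Nr1d1 and Nr1d2 (REV-ERB-alpha and -beta) repress the clock gene Arntl, and Rora activates it. Nr1d1 read 7.22 and 7.36 (0.14) and Nr1d2 9.88 and 9.86 (-0.02). Rora read 8.62 and 8.78 (0.16), and its other 4 detected probe sets were also higher, at 0.22 to 0.66. All 5 detected probe sets of Rora thus stood higher, although the brightest one by 1.12-fold. Nr1d2 has a dim second probe set at 0.68, and the mean of both differed by 0.33.

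Of 12 detected clock genes 5 were higher and 7 lower, beside 40.0% higher over all detected genes, with a list median of -0.17. At least 1.5-fold lower was 1 gene, Per1 (8.14 and 7.54), beside 3.56% of all genes. Cry2 differed by -0.53 and Arntl by -0.51 (-0.21 as the mean of its probe sets), while Dbp, an output gene of the clock, differed by 0.55. The labels do not name the hour at which each culture was harvested.

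Among steroid receptors, Nr3c1, the glucocorticoid receptor, read 9.32 and 9.11 (-0.21). Its probe sets disagreed. Another 2 bright ones stood at 0.02 and 0.19, and one read 6.14 and 7.33, a difference of 1.19 that was the farthest of any receptor probe set besides that of Nr2f1. Averaged, its 6 probe sets stood at 0.32, and the gene is given no direction. Esr1, an estrogen receptor, read 7.33 and 7.01 (-0.32), which was the lowest difference among the detected receptors, and its other 2 probe sets were under the floor. The mineralocorticoid receptor Nr3c2, Pgr and Esr2 were under the floor, at 4.16 to 6.13.

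Glucocorticoid handling and target genes were split in sign much as the array was, but their median was lower. Of 17 detected, 6 were higher and 11 lower, beside 40.0% higher among all detected genes. The list median was -0.25, and -0.14 where probe sets were averaged, beside -0.05 for all genes. At least 1.5-fold lower were 2, beside 3.56% of all detected genes. Hsd11b1, which regenerates active glucocorticoid, read 8.80 and 7.98 (-0.81). The targets Per1 (-0.60), Dusp1 (-0.55) and Tsc22d3 (-0.54, or -0.24 as the mean of its probe sets) followed. Sgk1 (-0.51), Cebpd (-0.46), Zbtb16 (-0.46) and Fkbp5 (-0.39) were lower as well, but the other detected Fkbp5 probe set stood at 0.48. The 6 higher genes differed by at most 0.11 in their brightest probe sets, and Errfi1 by 0.94 in its other detected one. Per1 is also a clock gene, Dusp1 is also an immediate early gene, and Klf9 is also in the thyroid list.

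Of the estrogen-related, testicular orphan and hepatocyte nuclear factor groups, 4 receptors were detected, and they differed by -0.09 to 0.15. Esrra, a regulator of mitochondrial genes, read 8.0 and 8.15 (0.14), while Esrrb and Esrrg were under the floor. The testicular orphan receptors Nr2c1 (8.23 and 8.14) and Nr2c2 (9.75 and 9.73) differed by -0.09 and -0.02. In each a second detected probe set had the opposite sign, at 0.04 and 0.01. Hnf4a, known from hepatocytes, read 7.56 and 7.71 (0.15) in 1 probe set, but its other 3 were under the floor at 4.11 to 6.05. The hepatocyte markers Alb and Apoa1 were under the floor as well, at 5.53 to 5.96.

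The immediate early receptors of the NR4A group went separate ways. Nr4a1 read 8.22 and 8.01 (-0.22) and Nr4a3 7.91 and 8.12 (0.21), with a second Nr4a3 probe set at 0.38. Nr4a2 was just under the floor at 6.75 and 6.78. Of 7 other detected immediate early genes 3 were higher and 4 lower, beside 40.0% higher over all detected genes. The list median was -0.34, beside -0.05 for all genes. Dusp1 (-0.55), Fos (-0.54), Junb (-0.39) and Egr1 (-0.34) were the lower ones.

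**Figure D5:**
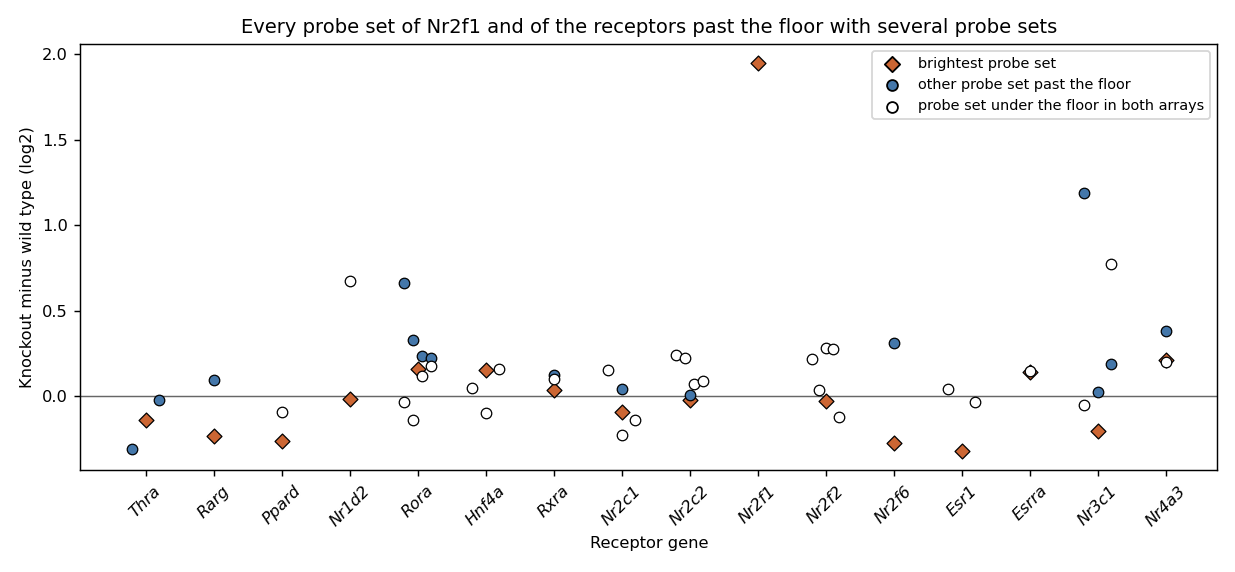
Knockout minus wild-type difference on the log2 scale (y axis) of every probe set of Nr2f1 and of the detected receptors with several probe sets (x axis), with diamonds for the brightest probe set, filled circles for others past the floor and open circles for those under it in both arrays. Nr2f1 has 1 probe set at 1.95, all 6 of Nr2f2 lie between -0.12 and 0.28, and those of Nr3c1 spread from -0.21 to 1.19.

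Coregulators that the receptors share hardly differed. Over all detected genes 40.0% were higher, with a median of -0.05. Coactivators were detected for 14 of 17 genes, 5 higher and 9 lower, with a median of -0.10 and none at 1.5-fold by its brightest probe set. Pnrc2 (-0.28), Ncoa3 (-0.26), Crebbp (-0.26) and Kat2b (0.23) were farthest from 0, and Crebbp stood at -0.59 in another detected probe set. Of 6 detected corepressor genes 3 were higher and 3 lower, with a median of -0.02 that turned to 0.03 with median centring. Tbl1xr1 differed by -0.32 and Nrip1 by 0.26, and Tbl1x by -0.26 with the opposite sign as the mean of its probe sets (0.09).

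Partners and proposed targets of the COUP-TFs were taken from general knowledge of these receptors in other tissues. Of 7 detected, 3 were higher, 3 lower and Notch2 was exactly equal, beside 40.0% higher over all detected genes. The list median was 0.00. Notch1, a cell surface receptor proposed as repressed by Nr2f2 in veins, read 7.71 and 6.61 (-1.10). That difference was -0.71 with low values raised to 7 and -0.61 as the mean of its probe sets. Angpt1, a vessel ligand, read 6.99 and 7.55 (0.56), and the neuropilins Nrp2 and Nrp1 differed by 0.28 and 0.13. The cofactor Bcl11a differed by -0.10, and Zfpm2 by -0.09 in its brightest probe set and -0.93 in its other detected one. The endothelial markers Pecam1, Cdh5, Tie1 and Emcn were under the floor, at 4.67 to 5.18, and Kdr stood at 7.01 and 6.94, with summed signals of 7.96 and 7.90 for the 5 markers.

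The other 24 measured receptors stayed under the floor in both arrays, between 4.16 and 6.78 by their brightest probe set, with differences of -0.22 to 0.38. They include the xenobiotic receptors Nr1i2 and Nr1i3, Rorb, Hnf4g, Nr2e1, both NR5A receptors, Nr6a1, and Nr0b1 and Nr0b2, which lack a classical DNA-binding domain. Within 0.5 below the floor lay Nr4a2, Esrrb (6.62 and 6.78), Nr6a1 (6.70 and 6.68), Nr1h3, Nr5a2 (6.63 and 6.65) and Nr0b2 (6.40 and 6.52). Within 0.5 above it lay Esr1 and Nr1d1. A dim signal can reflect a weak probe set, so such a receptor was not detectable on these arrays rather than absent.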

How the data were processed

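Total RNA of 1 wild-type and 1 miR-140 knockout culture was measured on Affymetrix arrays, grouped by sample title. The deposited values are log2 signals that the authors made with RMA, per the series design text, in Affymetrix Expression Console 1.1, per the submitters' processing notes. The log2 scale was read from the values (3.24 to 14.2). RMA brings arrays to a common distribution, so a shift shared by most genes is lost, and it compresses dim probe sets. The sources used here do not say which arrays entered that normalization together.

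Of 45101 probe sets, 34945 have a single platform symbol. Each gene was represented by its brightest probe set (mean of both arrays), and genes reaching log2 7 in either array were compared. All 44 measured receptors were found in RefSeq (GRCm38.p6) by Entrez identifier, and none changed symbol. A Ppard probe set shared with another gene was not used. Every detected receptor was named, with up to 4 genes of each other list farthest from 0, and others where a comparison or caption needed them. Receptors and lists were chosen with earlier results of these data known. The neighbouring genes, the start-site windows and the CG counts were added after the values were seen. Python 3.11.15, pandas 2.3.3 and statsmodels 0.14.6 were used, and the counting was tested on simulated data. Alternatives were 3 scalings, floors of 6 and 8 and no floor, 2 other choices of probe set, and raising low values to 7. The number of arrays limits the precision.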

Additional observations from a re-analysis of the deposited data

How the results depend on the processing

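Each result was recomputed under 9 other settings. Nr2f1 was the single receptor at least 1.5-fold different in all of them. Its difference was 1.95 to 1.99 except with values under 7 raised to 7, which by construction took it to 1.42 and its gap to Nr2f2 to 1.45. The number of receptors detected was 32 with a floor of 6, 44 with no floor, 16 with a floor of 8 and 14 where the probe sets of a gene were averaged; Nr2f2 was not past the floor in the last 2. The median over receptors stayed between -0.11 and 0.05, positive for averaged probe sets alone. Small differences changed sign for Nr2f2, Nr1d2 and Nr2c2 with scaling and, where probe sets were averaged, for Nr1d2, Nr2f6 and Nr3c1. A value was taken to have moved when it shifted by more than 0.21, 0.5 of the width of the central 68% of all detected genes. No paired analysis was possible because each genotype has 1 array.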
